A study of Mus musculus with 21 samples.

Results

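Tubular injury markers are genes whose transcripts accumulate in the renal tubule when its epithelium is damaged, and 10 of them were followed here in the kidney: Havcr1, Lcn2, Spp1, Clu, Vcam1, Sox9, Cd44, Prom1, Krt20 and Wfdc2. They were taken from a list of symbols, matched in the gene name column of the deposited results and traced by Ensembl identifier through the deposited count tables. All 10 of 10 were found among the 21657 genes of those tables, and all 10 passed the filter on low counts in each comparison. The mice were female apoE knockouts (labelled apoEKO) of C57BL/6J background, which carry the apoE deletion in every group, controls included. Diets were started at 4 weeks of age and kept for 14 weeks, and kidneys were taken at 18 weeks of age. The Con group received chow (5 mice), the Ade group chow with adenine (6 mice) and the Ade + IMC group chow with adenine and iodomethylcholine (IMC), an inhibitor of the bacterial enzyme that makes trimethylamine, the precursor of trimethylamine N-oxide (TMAO) (6 mice). The 4 mice fed chow with IMC were not analysed here, so that IMC could not be compared without adenine. Mice are named by the number in their labels, whose first digit (2, 3 or 4) has no stated meaning.

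As background, adenine given in excess is oxidised to an insoluble product that crystallises in the renal tubule, and the diet is used as a model of chronic tubulointerstitial kidney disease. Injured tubule cells lose transporters and raise a set of transcripts. Among these are the surface receptor Havcr1 (KIM-1) and secreted proteins such as Lcn2 (NGAL), Spp1 (osteopontin) and Clu (clusterin). The transcription factor Sox9, which marks cells in repair, is raised as well. Cells that fail to complete the repair keep Vcam1, an adhesion molecule for leukocytes. Several of the markers are not particular to the tubule, since Cd44 and Spp1 are also made by leukocytes, Vcam1 by endothelium and Krt20 by the superficial cells of the urothelium. In whole kidney RNA, a change in the number of cells of a type and a change in the RNA of each cell cannot be told apart.

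The promoters of 4 markers are shown because these genes include the widest changes with adenine (Havcr1 and Krt20), the most abundant marker (Spp1) and the marker that went least with the others among the adenine-fed mice of the IMC group (Cd44). Each sequence is the 250 bases before a RefSeq transcription start (GRCm38.p6), 5′ to 3′ on the strand of the gene, in lower case with motif matches in capitals. Havcr1 (chr11:46750261-46750510, plus strand) has 3 RefSeq starts, of which the one shown coincides within 100 bases with 1 of its 4 GENCODE transcripts. The others are Spp1 (chr5:104434861-104435110, plus strand), Krt20 (chr11:99438154-99438403, minus strand) and Cd44 (chr2:102901666-102901915, minus strand).
Havcr1: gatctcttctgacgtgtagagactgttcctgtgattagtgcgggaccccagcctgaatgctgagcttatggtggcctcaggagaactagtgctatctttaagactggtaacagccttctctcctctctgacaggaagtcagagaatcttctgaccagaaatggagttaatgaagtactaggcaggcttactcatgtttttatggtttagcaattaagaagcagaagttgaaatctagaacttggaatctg
Spp1: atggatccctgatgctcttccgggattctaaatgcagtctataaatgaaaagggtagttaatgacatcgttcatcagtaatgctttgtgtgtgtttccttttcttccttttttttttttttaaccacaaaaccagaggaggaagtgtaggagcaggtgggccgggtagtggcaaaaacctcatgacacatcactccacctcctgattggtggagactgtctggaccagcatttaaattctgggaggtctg
Krt20: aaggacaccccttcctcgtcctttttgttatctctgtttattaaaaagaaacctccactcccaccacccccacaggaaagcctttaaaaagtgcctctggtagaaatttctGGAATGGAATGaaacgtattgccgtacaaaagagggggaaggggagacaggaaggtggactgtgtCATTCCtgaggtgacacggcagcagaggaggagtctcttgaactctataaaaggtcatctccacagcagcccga
Cd44: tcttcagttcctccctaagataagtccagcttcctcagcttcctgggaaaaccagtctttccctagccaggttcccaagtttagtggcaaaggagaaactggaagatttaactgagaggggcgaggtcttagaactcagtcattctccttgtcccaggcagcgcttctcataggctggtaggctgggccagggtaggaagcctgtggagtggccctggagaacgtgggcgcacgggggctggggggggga
On both strands, 4 motifs were searched: TGANTCA (AP-1), TTCNNNGAA (STAT), GGG and TTTCC with 2 free bases between them (NF-κB), and GGAATG (TEAD). Only Krt20 among these 4 promoters held any, with 3 matches to GGAATG, of which a pair overlapped by 1 base. The motifs occurred in 6.75%, 7.02%, 1.41% and 12.6% of 32807 RefSeq promoters of the same length. Of the 10 markers, 7 had a promoter in the table, and the only other match among the windows chosen for them was TGANTCA in that of Prom1. Clu, Vcam1 and Sox9 had no entry.

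The total count per kidney was 7716126 to 11680809 in the Con group, 5444833 to 7673215 in the Ade group and 5728589 to 8305968 in the Ade + IMC group, and within a group no pair of libraries agreed within counting noise. Levels of single mice are given as CPM, counts scaled to library sizes adjusted by TMM, on 1 scale for all 17 mice. A count of 3, taken as the floor of detection, corresponded to 0.298 to 0.511 CPM across the libraries. Proximal tubule markers were abundant in the Con kidneys (12 genes, summed level of 15510 to 21420 CPM).

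Adenine raised 9 of the 10 markers. Compared to the Con group, the levels of Havcr1, Krt20, Lcn2, Cd44, Vcam1, Sox9, Spp1, Clu and Wfdc2 were higher in the Ade group at an adjusted p-value below 0.1 (edgeR's quasi-likelihood test, Benjamini-Hochberg over 14612 genes), while that of Prom1 did not pass the test. Adenine moved a large part of the transcriptome, with 67.3% of the tested genes called and 35.1% called higher, and the 9 of 10 is to be read against that share. The median log2 fold change of the 10 markers was 3.45, against 0.02 over all tested genes. For 8 of the 10 markers every Ade kidney was above every Con kidney, a separation seen in 22.8% of the tested genes.

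**Figure D1:**
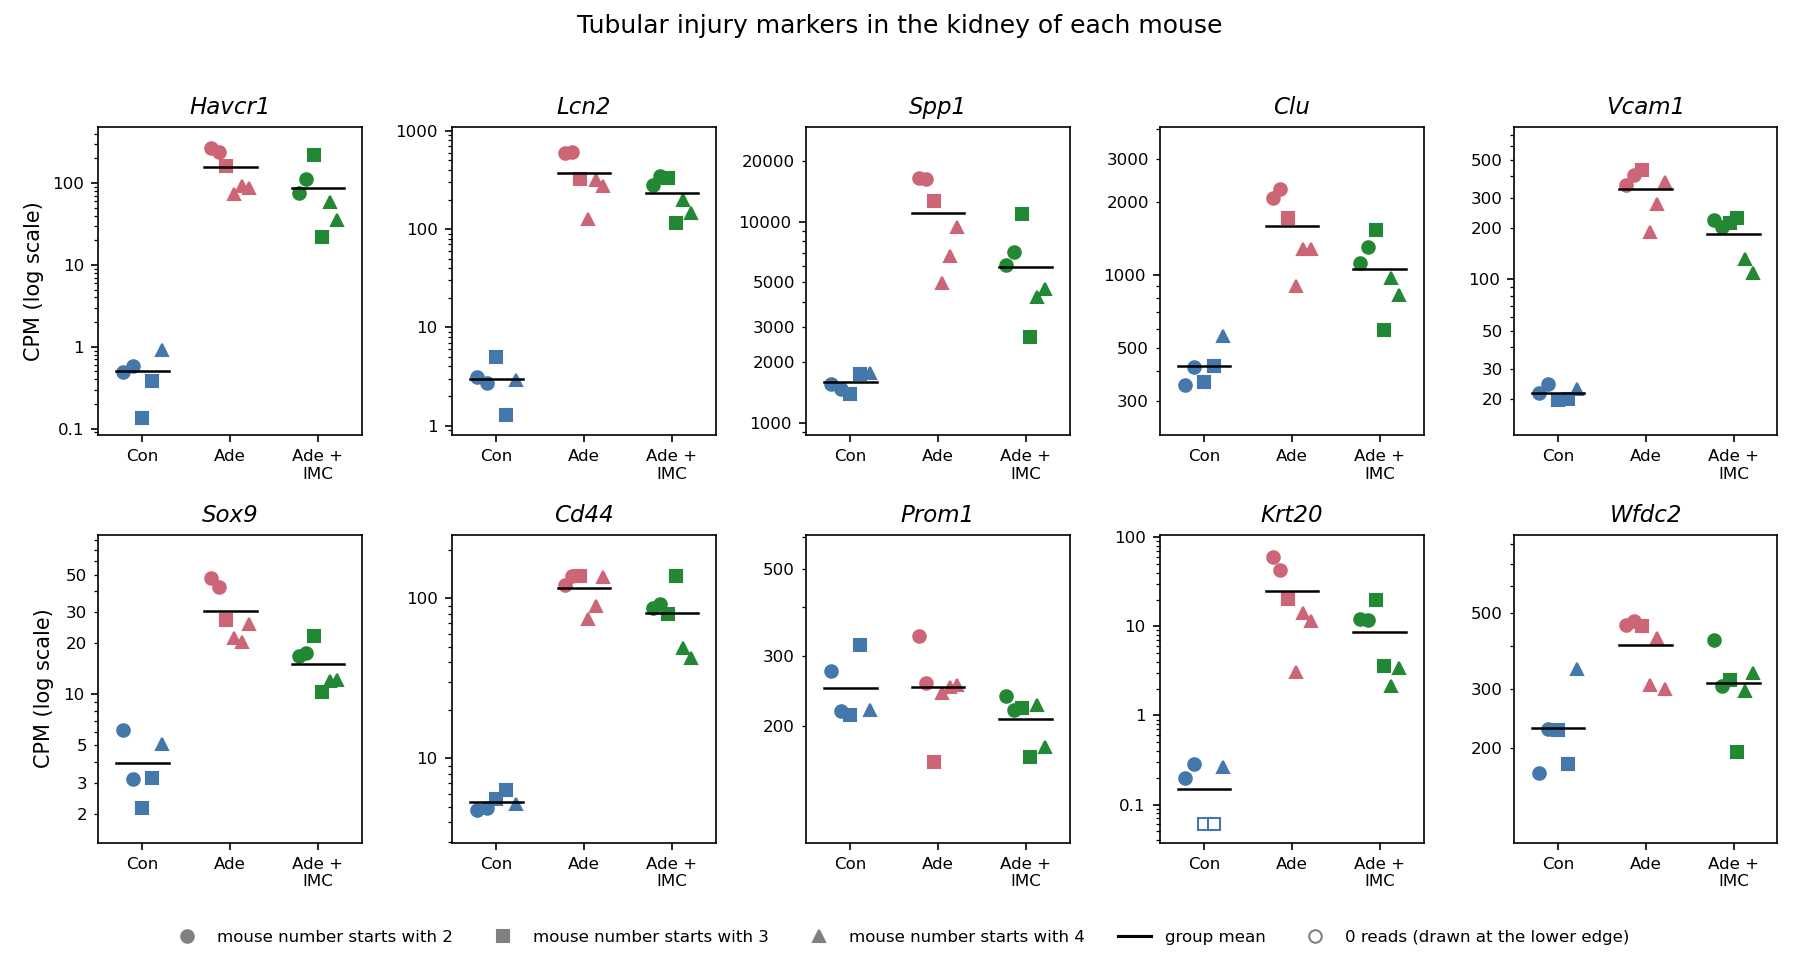
Level of each marker in CPM (log scale) in the 17 kidneys, with 1 panel per gene. Points are mice, their shape gives the first digit of the mouse number, bars are group means (5 Con, 6 Ade and 6 Ade + IMC mice), and open symbols are the 2 Con kidneys with 0 reads of Krt20; the Ade and Ade + IMC points lie above all Con points except for Prom1 and Wfdc2.

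Havcr1 (chromosome 11, 46735080 to 46779578, plus strand, GRCm38) encodes KIM-1, a receptor for phosphatidylserine by which injured tubule cells engulf dead neighbours. Its level was 0.497, 0.577, 0.135, 0.387 and 0.914 CPM in the Con mice 201, 202, 301, 302 and 403. The Ade mice ranged from 74.2 to 269 CPM with a median of 127, and the Ade + IMC mice from 21.8 to 218 CPM with a median of 66.4. The Con kidneys held only 1 to 7 reads each, near the floor, and neither adenine group overlapped them. By edgeR the log2 fold change of the Ade group was 8.22 (SE 0.55, adjusted p = 6.78e-08), the 11th largest of the 14612 genes. Since so few control reads stood behind it, the ratio of the summed read shares was also computed, and it was 383-fold (95% counting interval 248 to 628) for the Ade group. These intervals and the floor cover counting error only. Here and below, the read shares are of total counts without the TMM adjustment. Computed in this way, Prom1 was 1.25-fold higher in the Ade group, where the edgeR fit gave 1.01-fold.

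Lcn2 (chromosome 2, 32384633 to 32388252, minus strand) encodes a lipocalin that binds iron-carrying siderophores. The 5 Con mice had 3.08, 2.74, 5.01, 1.29 and 2.87 CPM. With adenine alone the range was 126 to 611 CPM (median 319), and with adenine and IMC it was 116 to 344 CPM (median 237). All adenine-fed kidneys were thus above all controls, and mice 207 and 208 of the Ade group stood apart at the top with 589 and 611 CPM. The log2 fold change by edgeR was 6.96 (SE 0.47, adjusted p = 7.97e-08).

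Spp1 (chromosome 5, 104435118 to 104441050, plus strand) encodes osteopontin, a secreted phosphoprotein that binds integrins and Cd44 and inhibits the growth of crystals in urine. It was the only marker already among the 50 most abundant genes by CPM in the Con kidney, where it ranked 42nd of 20634, and it ranked 4th in the Ade group and 9th in the Ade + IMC group. The Con levels were 1558, 1470, 1396, 1755 and 1769 CPM. The Ade mice had 4942 to 16516 CPM (median 11114), and the Ade + IMC mice 2665 to 10941 CPM (median 5383). The groups fed adenine did not overlap the Con group, and the log2 fold change of the Ade group was 2.81 (SE 0.31, adjusted p = 5.10e-06, edgeR). Of its 1648 exonic bases, 309 are shared with the transcript model Gm42793 on the same strand, so a part of its reads could belong to either.

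Clu (chromosome 14, 65968483 to 65981547, plus strand) encodes clusterin, a secreted chaperone. The Con mice had 350, 418, 360, 422 and 561 CPM. The Ade mice had 897 to 2270 CPM (median 1497), and the Ade + IMC mice 594 to 1538 CPM (median 1046). The lowest adenine-fed kidney, that of mouse 311 of the Ade + IMC group, was only slightly above the highest control, that of mouse 403. The log2 fold change of the Ade group was 1.91 (SE 0.23, adjusted p = 1.22e-05, edgeR).

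Wfdc2 (chromosome 2, 164562413 to 164568510, plus strand), a small secreted protein with the fold of protease inhibitors, had the smallest called change. Con levels were 169, 228, 226, 180 and 342 CPM. The Ade group lay between 300 and 474 CPM (median 440) and the Ade + IMC group between 195 and 416 CPM (median 312). Mouse 403 was the highest control for Wfdc2, Clu, Spp1 and Havcr1, and its Wfdc2 level was above those of 2 of the 6 Ade mice. The log2 fold change of 0.83 (SE 0.19, adjusted p = 0.00198, edgeR) was called with each mouse left out in turn.

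Vcam1 (chromosome 3, 116109949 to 116129688, minus strand) encodes an adhesion molecule that binds integrin α4β1 on leukocytes. Its Con levels were close together, at 21.6, 24.4, 19.8, 19.9 and 22.7 CPM. Its level was 190 to 434 CPM (median 363) in Ade mice, and 109 to 230 CPM (median 208) in Ade + IMC mice. The log2 fold change of the Ade group was 3.97 (SE 0.20, adjusted p = 9.92e-09, edgeR). An antisense gene shares 61 of the 8870 exonic bases of Vcam1.

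Cd44 (chromosome 2, 102811141 to 102901665, minus strand) encodes the receptor of hyaluronan. Con levels were 4.77, 4.90, 5.55, 6.32 and 5.22 CPM. The Ade group had 74.3 to 139 CPM (median 128), and the Ade + IMC group 42.5 to 138 CPM (median 83.2). Among the markers it had the smallest adjusted p-value (log2 fold change 4.45, SE 0.20, adjusted p = 3.08e-09, edgeR).

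Prom1 (chromosome 5, 43993620 to 44102032, minus strand) encodes prominin 1 (CD133), a membrane glycoprotein of apical protrusions. The levels were 276, 218, 213, 321 and 219 CPM in the Con mice. Ade mice had 162 to 338 CPM (median 252), and Ade + IMC mice 166 to 238 CPM (median 221). The 3 groups overlapped, and the log2 fold change of the Ade group was 0.01 (SE 0.16, adjusted p = 0.948, edgeR), a value whose sign depended on the scaling and on single mice. An antisense gene shares 424 of the 7175 exonic bases of Prom1, and the use of strand in the counting is not given in the sources used here, so that reads of the 2 genes could not be told apart there.

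Sox9 (chromosome 11, 112782224 to 112787760, plus strand) encodes a transcription factor of epithelial progenitors. Its Con levels were 6.17, 3.17, 2.17, 3.23 and 5.09 CPM. Ade mice had 20.03 to 47.5 CPM (median 26.5), and Ade + IMC mice 10.3 to 21.96 CPM (median 14.3). No adenine-fed kidney overlapped a control, and the log2 fold change of the Ade group was 2.93 (SE 0.30, adjusted p = 2.91e-06, edgeR).

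Krt20 (chromosome 11, 99428403 to 99438150, minus strand) encodes keratin 20, an intermediate filament protein of the gut lining and the urothelium that also appears in injured tubules. It was close to absent in the Con kidneys, with 6 reads in all 5 and 0 in mice 301 and 302. The Ade group had 3.11 to 59.5 CPM (median 17.3), and the Ade + IMC group 2.14 to 19.6 CPM (median 7.68). Read shares were 212-fold higher in the Ade group than in the Con group (95% counting interval 97.3 to 580) and 68.4-fold higher in the Ade + IMC group (31.1 to 188). The fitted log2 fold change of the Ade group was 7.25 (SE 0.97, adjusted p = 2.83e-05, edgeR), and with DESeq2 it was 7.36 (SE 0.95).

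Per kb of exon, the order of the mean levels in the Con group was Spp1 (965 ± 102 CPM per kb, SD, n = 5), Wfdc2 (201 ± 60.1), Clu (123 ± 24.5) and Prom1 (34.7 ± 6.62), with the other 6 markers at 2.44 or less. In the Ade group it was Spp1 (6754 ± 2955, n = 6), Clu (461 ± 153), Wfdc2 (354 ± 69.7), Lcn2 (142 ± 72.3) and Havcr1 (66.7 ± 36.3), followed by Vcam1 (38.3 ± 10.2), Prom1 (34.9 ± 7.80), Cd44 (17.2 ± 4.10), Krt20 (13.1 ± 11.1) and Sox9 (7.42 ± 2.76). In that order the neighbours Clu and Wfdc2, Havcr1 and Vcam1, Vcam1 and Prom1, Cd44 and Krt20, and Krt20 and Sox9 differed by less than the larger of their SDs. Prom1 passed from the 4th to the 7th place with a mean of 34.7 and 34.9 CPM per kb, because Lcn2, Havcr1 and Vcam1 passed above it.

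The same kidneys were read for genes known from injured tubules other than the 10 markers, and for markers of the other cells of the kidney. These lists were chosen with earlier results of these data known, so they are not an independent check. Of 25 injured tubule genes tested, 23 were higher and 1 was lower in the Ade group, with a median log2 fold change of 1.97 (edgeR, adjusted p below 0.1, against 35.1% of all genes called higher). The complement component C3 rose most (log2 fold change 4.996, SE 0.21, adjusted p = 2.16e-09), and Krt19, a simple epithelial keratin, followed (3.41, SE 0.48, adjusted p = 4.11e-05). The integrin subunit Itgb6 fell by 0.75 on the log2 scale (SE 0.15, adjusted p = 0.000560). Among 12 tested ligands, receptors and relatives of the markers, 8 were higher and 2 were lower. Those that rose most were Cd300lf, another phosphatidylserine receptor (log2 fold change 4.18, SE 0.44), and Hmmr, a hyaluronan receptor beside Cd44 (3.08, SE 0.33), while the 2 endocytic receptors of Lcn2 on the list, Lrp2 and Slc22a17, fell by 2.65 (SE 0.38) and 0.31 (SE 0.11). Lrp2, megalin, which is also on the proximal tubule list, went from 4796 ± 1315 CPM in the Con group (SD, n = 5) to 759 ± 537 CPM in the Ade group (n = 6).

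Markers of tubular segments were mostly lower, and those of leukocytes and fibroblasts higher. All 11 tested proximal tubule markers were lower in the Ade group (median log2 fold change -1.94, edgeR), against 32.2% of all genes called lower, as were 5 of 5 collecting duct markers and 3 of 5 thick ascending limb markers, 1 of which was higher. Of the other lists, markers of macrophages (8 of 8), fibroblasts (6 of 6), T cells (6 of 6), B cells (4 of 4) and neutrophils (2 of 2) were called higher, against 35.1% of all genes. Urothelium markers were called higher in 4 of 7 and podocyte markers in 1 of 4, while 2 of 5 endothelial markers were called lower, the podocyte and endothelial counts being near the shares of all genes called in those directions. The part of these cells in the levels of the markers they share with the tubule was not tested, but their levels by group can be given. The macrophage list summed to 200 to 238 CPM in the Con group, 1331 to 2197 in the Ade group and 1200 to 2016 in the Ade + IMC group, with none of its 8 genes at 0. The urothelium list summed to 4.13 to 40.8 CPM, 15.8 to 132 CPM and 10.9 to 147 CPM in the same order, again with none of its 7 genes at 0. The endothelial list summed to 401 to 616 CPM, 282 to 532 CPM and 339 to 676 CPM.

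To examine whether the markers differed between the adenine-fed mice with and without IMC, the normalized counts of the Ade and Ade + IMC groups were compared by limma on log2(normalized count + 1). All 10 markers had a lower mean in the Ade + IMC group, and none was called at an adjusted p-value below 0.1 over the 14696 genes tested, as was no other gene (0% called). The log2 fold changes ran from -1.40 (Krt20) to -0.25 (Prom1) with a median of -0.74, against 0.01 over all genes, and 48.4% of all genes had a lower mean. The markers were read in the same mice and were correlated, as given below, so their shared direction is not 10 independent results. Without adjustment, 6 of the 10 markers and 988 genes (6.72%) had a p-value below 0.05, 3.35% of the genes in the lower direction. On the reads recovered from the normalized counts, edgeR also called 0 genes. DESeq2 called 37 genes (0.174%), among them Sox9 (adjusted p = 0.0384) and Vcam1 (adjusted p = 0.0584). When the leading digit of the mouse number entered as a block, DESeq2 called 591 genes (2.78%), and among them 6 of the markers. The shares for DESeq2 are of the 21287 genes with any read, a wider base than the 14696, and are lower for that reason.

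**Figure D2:**
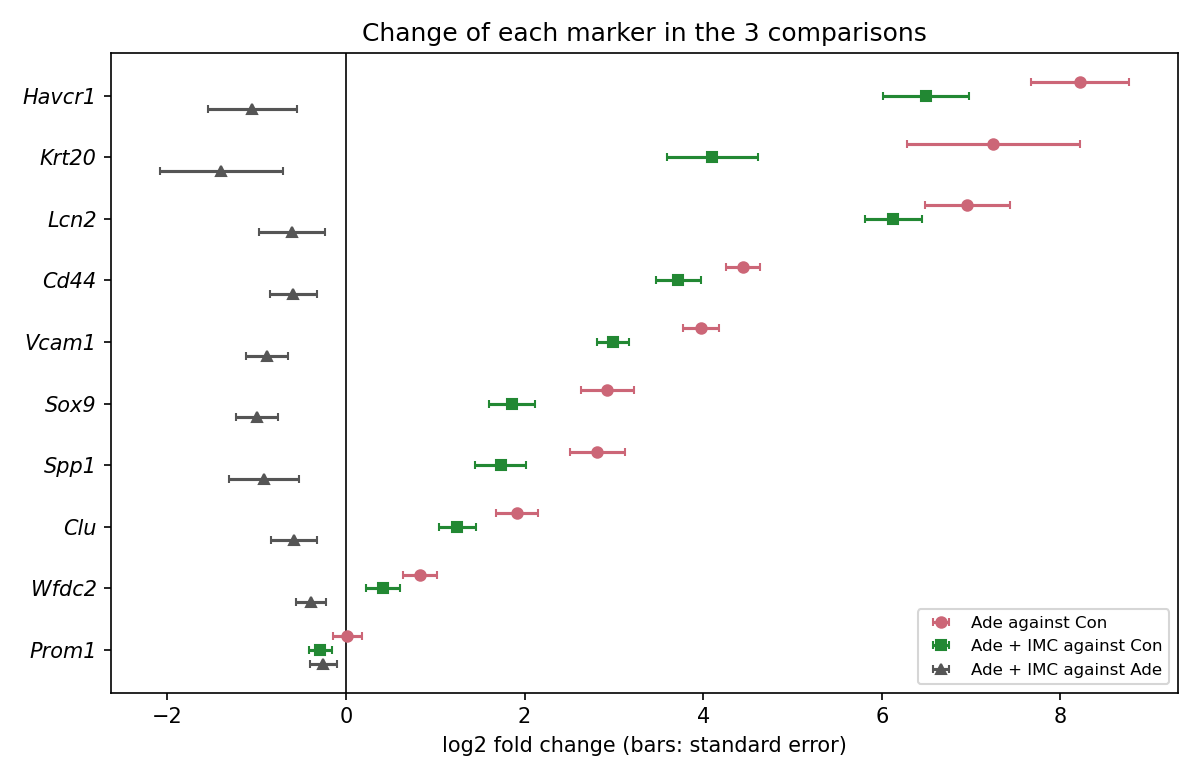
Log2 fold change of each marker in the 3 comparisons, with bars for the standard error; Ade against Con is from edgeR, and the other comparisons are from limma. All 10 differences of Ade + IMC against Ade lie below 0, between -1.40 and -0.25, and none was called.

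Sox9 and Vcam1 had the smallest p-values of the 10. For no marker were the 2 groups fully apart, a separation that 0.0885% of all genes showed in the lower direction. The normalized count of Sox9 was 147 to 352 in Ade mice (median 197) and 77.5 to 163 in Ade + IMC mice (median 105), and 5 of the 6 Ade + IMC mice were below every Ade mouse. Its log2 fold change was -0.997 (SE 0.24, limma adjusted p = 0.601). A two-sided exact permutation of the 12 mice for this gene alone gave p = 0.00649, where the 924 splits allow no p-value below 0.00216. For Vcam1 the normalized count was 1416 to 3207 (median 2696) and 794 to 1721 (median 1539), and the groups overlapped through mouse 407 of the Ade group. Its log2 fold change was -0.88 (SE 0.23, limma adjusted p = 0.643, exact permutation p = 0.0108).

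Spp1 had normalized counts of 36814 to 122203 in Ade mice (median 82390) and 19967 to 80988 in Ade + IMC mice (median 39553). The 3 lowest of the Ade + IMC mice were below every Ade mouse, and the log2 fold change was -0.91 (SE 0.39, limma adjusted p = 0.715, exact permutation p = 0.0498). Havcr1 had 553 to 1989 (median 939) and 164 to 1615 (median 488), a log2 fold change of -1.05 (SE 0.50, limma adjusted p = 0.742, exact permutation p = 0.104). Mouse 310 of the Ade + IMC group, with 1615, was the third highest of the 12 for this gene. Krt20 had the largest mean difference and the largest spread, with 23.2 to 441 in Ade mice (median 127) and 15.7 to 145 in Ade + IMC mice (median 57.0). Its fitted log2 fold change was -1.40 (SE 0.69, limma adjusted p = 0.745, exact permutation p = 0.119). The groups overlapped widely for Krt20, its lowest Ade mouse (407) lying below 5 of the 6 Ade + IMC mice.

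For the other 5 markers the log2 fold changes were -0.60 (Lcn2, SE 0.37), -0.59 (Cd44, SE 0.26), -0.58 (Clu, SE 0.26), -0.39 (Wfdc2, SE 0.17) and -0.25 (Prom1, SE 0.15). Their limma adjusted p-values were 0.717 to 0.774, and the exact permutation p-values were 0.0584 to 0.197. For Prom1 no Ade + IMC mouse was below every Ade mouse. Of the 25 injured tubule genes tested, 24 also had a lower mean in the Ade + IMC group (median log2 fold change -0.36), with 0 called by limma. These genes were read in the same mice as the markers, so the count is not a second set of observations. The 11 proximal tubule markers had a higher mean in 9 cases (median 0.44), and the 8 macrophage markers a lower mean in 8 (median -0.26). Means were also higher for 5 of 5 collecting duct markers (median 0.52), 4 of 4 podocyte (0.50), 4 of 5 thick ascending limb (0.37), 5 of 5 endothelial (0.31), 6 of 7 urothelium (0.29) and 4 of 6 fibroblast markers (0.10). Of 6 T cell markers 4 had a lower mean (-0.04), of 4 B cell markers 3 (-0.09) and of 2 neutrophil markers 1 (median 0.03). None of these was called, and their part in the differences of the injury markers was not tested.

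**Figure D3:**
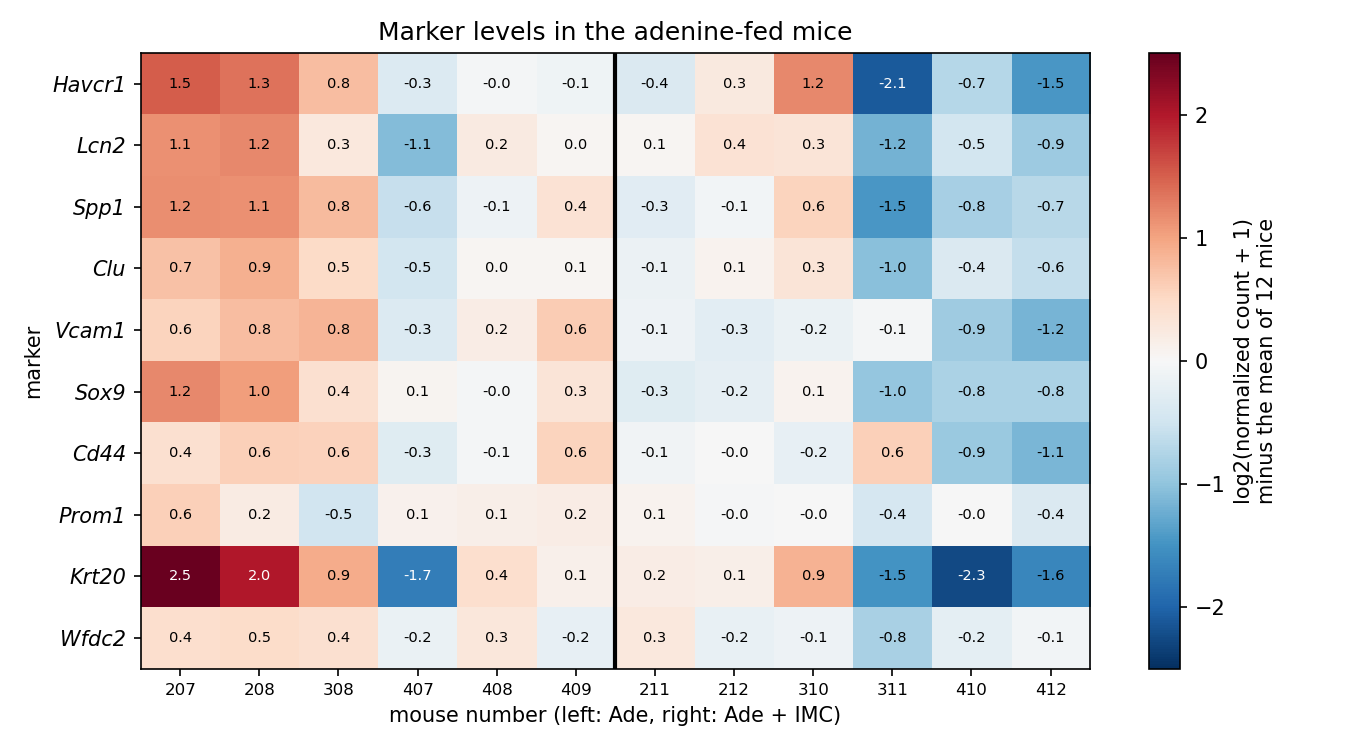
Levels of the 10 markers in the 12 adenine-fed mice as log2(normalized count + 1) minus the mean of the 12 mice of that gene, the 6 Ade mice left of the line and the 6 Ade + IMC mice right of it. Mice 207 and 208 are high for most markers, and mouse 311 is low for most markers but high for Cd44.

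The spread among the adenine-fed kidneys was wide and was shared by most markers. From the lowest to the highest of the 12 mice the normalized count varied 28.0-fold for Krt20, 12.2-fold for Havcr1, 6.12-fold for Spp1 and 5.22-fold for Lcn2, but only 2.41-fold for Wfdc2 and 2.09-fold for Prom1. Mouse 208 of the Ade group was among the 2 highest mice for 10 of the 10 markers, and mouse 207 for 8. These were the only Ade mice with first digit 2, and the levels in Ade mice differed by digit. The mean normalized count of Havcr1 was 1887, 1198 and 628 with the digits 2, 3 and 4 (2, 1 and 3 mice), that of Lcn2 was 4450, 2385 and 1768, and that of Krt20 was 378, 150 and 71.3. Spp1, Clu, Sox9 and Wfdc2 fell in the same order. Other orders were seen for Vcam1 (2838, 3207 and 2068), Cd44 (966, 1026 and 739) and Prom1 (2206, 1198 and 1843). With so few mice, differences between digits and between single mice cannot be told apart. At the other end, mouse 311 of the Ade + IMC group was the lowest of the 12 for 6 markers, and mice 410 and 412 were among the 3 lowest for 7 and 9. Mouse 311 did not follow this order for Cd44, for which it was the highest of the 12 (normalized count 1034, next to 1031 in mouse 208), and it also had the highest T cell and B cell list sums (251 and 285 CPM) of the 12 mice. Its macrophage list sum of 2016 CPM was the highest of the Ade + IMC group. Mice 207 and 208 had the lowest proximal tubule list sums of the 12 (2529 and 2617 CPM), and their urothelium list sums of 132 and 97.5 CPM were above those of the other 4 Ade mice. They also had the lowest collecting duct (256 and 279 CPM) and podocyte list sums (270 and 487 CPM) of the 12. Their injured tubule list sums (5767 and 5583 CPM) were the highest. Whether these lists account for the levels of the markers was not tested, and for Krt20 the urothelium list was also high in mice 410 and 211 (136 and 147 CPM), where Krt20 had normalized counts of 15.7 and 89.1.

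Each first digit of the mouse number was shared by mice of both adenine groups. Within the digit, the mean log2(normalized count + 1) of the Ade + IMC mice was lower than that of the Ade mice for 10 of the 10 markers with digit 2 (2 mice each), for 9 with digit 3 (2 mice against 1) and for 10 with digit 4 (2 against 3), Prom1 with digit 3 being the exception (0.26). Since the markers were correlated over these mice, the counts of markers are not counts of independent results. The difference of Sox9 was -1.39, -0.84 and -0.91 with the digits 2, 3 and 4. That of Vcam1 was -0.85, -0.96 and -1.18, and that of Havcr1 was -1.48, -1.22 and -0.92. With the digit as a block in the limma fit, 133 genes (0.905%) were called, and of the markers Vcam1 (log2 fold change -1.02, SE 0.14, adjusted p = 0.0426) and Sox9 (-1.06, SE 0.17, adjusted p = 0.0599) were called lower. The other 8 had adjusted p-values of 0.114 (Cd44) to 0.487 (Prom1) in this fit. The 9 markers called higher in the Ade group against the Con group were called with the block too.

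**Figure D4:**
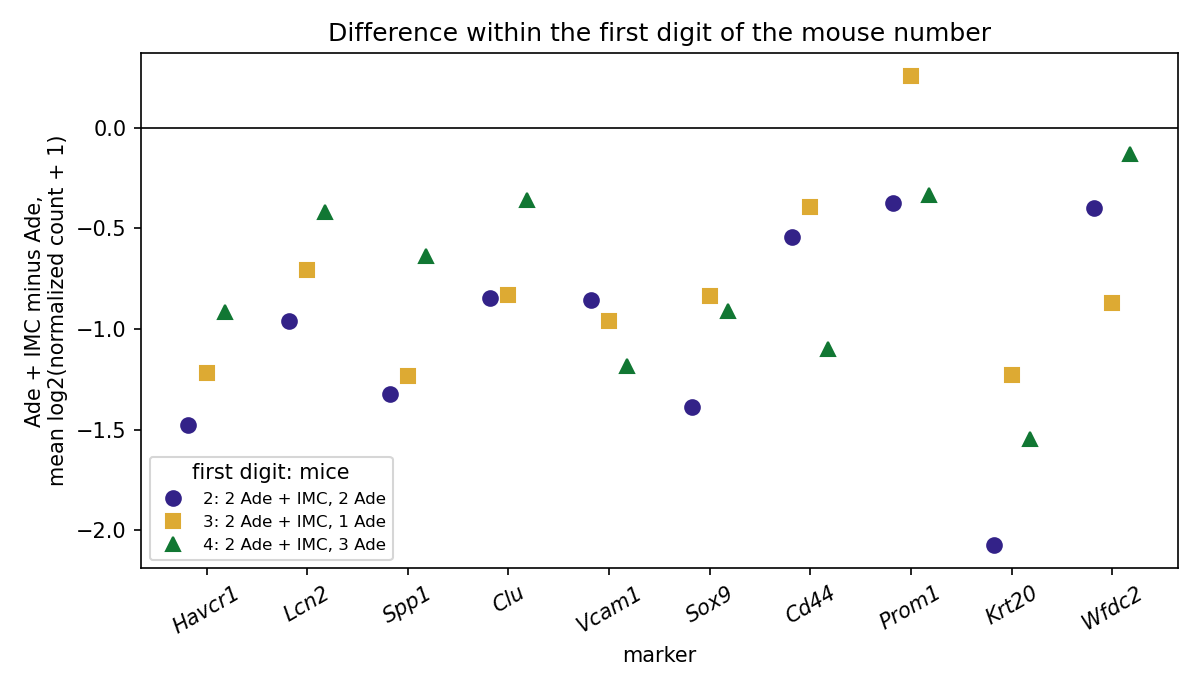
Difference between the Ade + IMC and Ade means of log2(normalized count + 1) for each marker, computed within each first digit of the mouse number, with the number of mice in the legend. Of the 30 differences, 29 lie below 0, and Prom1 with digit 3 is above it. The markers were read in the same mice and were correlated, so the 30 differences are not independent.

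The Ade + IMC kidneys remained far from the Con kidneys. Compared to the Con group by limma on log2 CPM (63.4% of 14578 genes called, 30.9% higher and 32.5% lower), all 10 markers were called, 9 of them higher, and the median log2 fold change of the 10 was 2.42 against -0.02 over all genes. For 8 of the 10 every Ade + IMC kidney was above every Con kidney (20.7% of the genes tested, with 16.2% apart in the lower direction). The log2 fold changes were 6.49 for Havcr1 (SE 0.48), 6.13 for Lcn2 (SE 0.32), 4.10 for Krt20 (SE 0.51), 3.72 for Cd44 (SE 0.25) and 2.99 for Vcam1 (SE 0.18). Those of Sox9, Spp1 and Clu were 1.86 (SE 0.26), 1.73 (SE 0.29) and 1.25 (SE 0.21), with adjusted p-values of 0.000200 or less for all 8 (limma). Both contrasts use the same Con mice, and for Havcr1 and Krt20 their fitted values are not on 1 scale, since the prior counts of edgeR and of log2 CPM differ. In ratios of summed read shares, Havcr1 was 204-fold higher with adenine and IMC than in the Con group (95% counting interval 132 to 334).

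At the low end, Wfdc2 was called higher (log2 fold change 0.41, SE 0.19, adjusted p = 0.0769, limma) and Prom1 lower (-0.29, SE 0.13, adjusted p = 0.0680). Both calls were near the threshold. With single mice left out, the log2 fold change kept its sign, at 0.31 to 0.56 for Wfdc2 and -0.35 to -0.20 for Prom1, while the calls changed. Wfdc2 was no longer called without any one of 7 of the 11 mice (Con 201, 202, 301 and 302, Ade + IMC 211, 212 and 310, adjusted p = 0.105 to 0.198), and Prom1 was not called without Con mouse 201 or 302 or without Ade + IMC mouse 311 or 412 (adjusted p = 0.134 to 0.196), nor with the digit as a block (adjusted p = 0.103).

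The markers were then related to each other over the 12 adenine-fed mice, as log2(normalized count + 1). All 45 pairs had a Pearson r above 0, with a median of 0.726 and a range of 0.154 to 0.978. By permutation of the mice (100000 resamples), 34 of the 45 pairs passed an adjusted p-value of 0.1, adjusted over the 45 pairs, and by Spearman's rho 27 did. For comparison, the median r of a marker with all of the 14695 other genes of that filter was between -0.05 and 0.01.

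**Figure D5:**
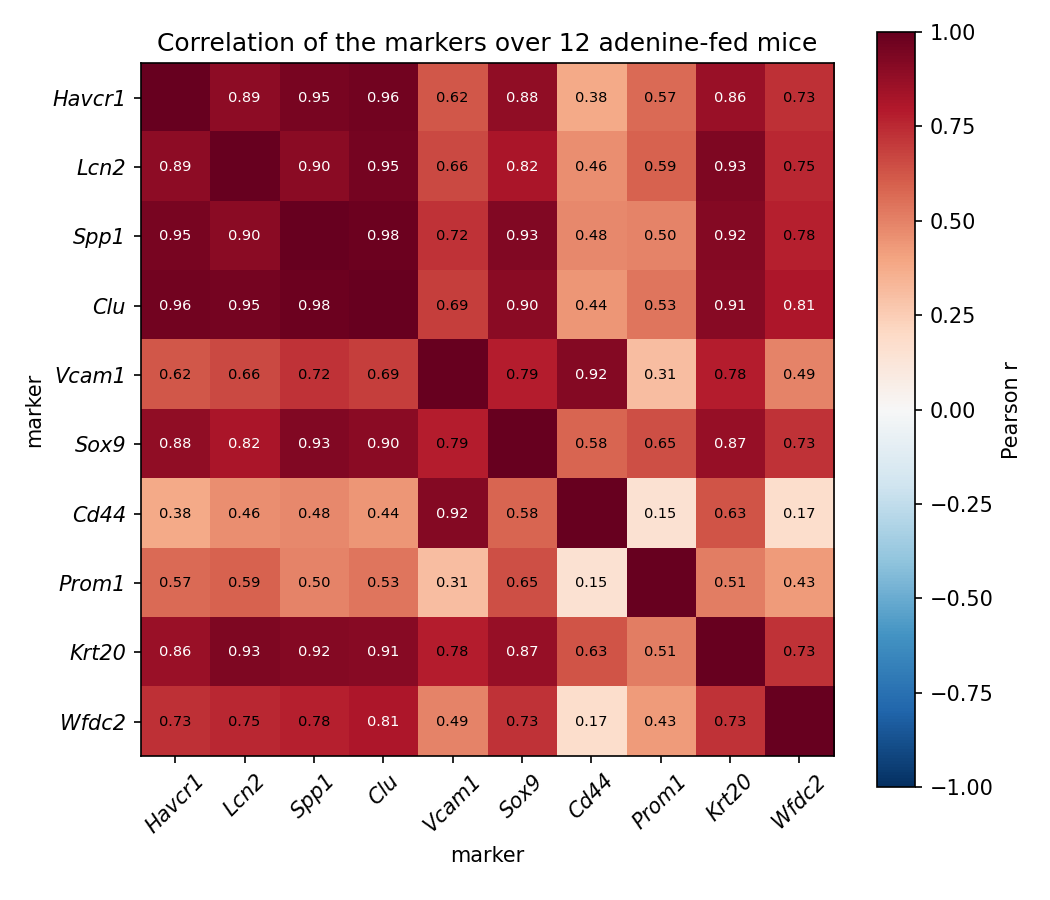
Pearson r of log2(normalized count + 1) for each pair of the 10 markers over 12 adenine-fed mice (6 Ade and 6 Ade + IMC). Havcr1, Lcn2, Spp1, Clu, Sox9 and Krt20 form a block of high values, while the rows of Cd44 and Prom1 are paler, except for Cd44 with Vcam1.

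Spp1 and Clu were the closest pair (r = 0.978, permutation adjusted p = 9e-05; rho = 0.965, permutation adjusted p = 0.00015), and their r was 0.967 to 0.983 with any 1 mouse left out and 0.959 without the 2 mice farthest from the median of Spp1. Havcr1 went with Clu (r = 0.964, rho = 0.958) and Spp1 (r = 0.946, rho = 0.958), and Lcn2 with Clu (r = 0.954, rho = 0.944) and Krt20 (r = 0.933, rho = 0.853), the permutation adjusted p-values of r being 0.000350 or less. Sox9 was correlated with each of the other 9 markers past the threshold, at r = 0.579 (Cd44) to 0.930 (Spp1). By Spearman's rho its pairs with Cd44 and Prom1 did not pass (permutation adjusted p = 0.264 and 0.108). With the group means taken out, those with Vcam1, Cd44, Prom1 and Wfdc2 did not pass (permutation adjusted p = 0.162, 0.375, 0.162 and 0.120). In the 2 groups taken singly, Spp1 and Clu had r = 0.971 (Ade) and 0.967 (Ade + IMC), and Havcr1 and Clu 0.956 and 0.985.

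Cd44 was closest to Vcam1 (r = 0.920, permutation adjusted p = 0.000540; rho = 0.839, permutation adjusted p = 0.00389), with r = 0.976 in the Ade group and 0.928 in the Ade + IMC group. Vcam1 also went with other markers, with 7 of its 9 pairs past the threshold (median r = 0.691), among them those with Sox9 (0.786), Krt20 (0.782) and Spp1 (0.724). With the group means taken out, only its pairs with Cd44 and Krt20 passed (permutation adjusted p = 0.000643 and 0.0432). The median r of Vcam1 was 0.769 within the Ade group and 0.294 within the Ade + IMC group. With the markers other than Vcam1 Cd44 was less close, its median r over all 9 pairs being 0.463, with 3 of the 9 past the threshold. By Spearman's rho, and with the group means taken out, only its pair with Vcam1 passed. For Cd44 with Krt20 the permutation adjusted p-values were then 0.130 and 0.162. Within the Ade group the median r of Cd44 was 0.709, and within the Ade + IMC group -0.03. Over the 12 mice of both groups, the r of Cd44 with Havcr1 was 0.382, and with any 1 mouse left out it was 0.182 to 0.752, the highest value being that without mouse 311. The median r within the Ade + IMC group was not computed without that mouse. The difference between the groups was not tested. Prom1 had a median r of 0.510, with 4 of its 9 pairs past the threshold, and 0.158 within the Ade group and 0.680 within the Ade + IMC group. None of its pairs passed by Spearman's rho (lowest permutation adjusted p = 0.108) or with the group means taken out (lowest permutation adjusted p = 0.162).

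The correlations include the differences between the groups and between the first digits. With the group means taken out, 22 of the 45 pairs passed the threshold and the median r was 0.586. With the means of the first digit taken out, 31 passed and the median was 0.702. Within the 6 Ade mice 22 pairs passed and within the 6 Ade + IMC mice 12, by exact permutation. Without the 2 mice farthest from the median, 30 pairs passed (median r = 0.778).

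Depth and the amount of proximal tubule RNA were set beside the markers in the same 12 mice, as 20 relations. The library total was not correlated with any marker past the threshold (r = -0.50 to 0.21, permutation p-values adjusted over 20 of 0.268 to 0.875). Without the 2 mice farthest from the median of the total, r was -0.29 (Wfdc2) to 0.66 (Cd44), where it had been 0.12 for Cd44 with all mice. With the mean level of the proximal tubule markers all 10 had an r below 0 (-0.74 to -0.35), and 5 passed the threshold, namely Cd44 (r = -0.74, rho = -0.85), Vcam1 (r = -0.74, rho = -0.83), Krt20 (r = -0.74, rho = -0.69), Lcn2 (r = -0.70, rho = -0.52) and Sox9 (r = -0.64, rho = -0.50). Permutation adjusted p-values of r were 0.0399, 0.0399, 0.0399, 0.0546 and 0.0974, and by rho only Cd44 and Vcam1 passed (both 0.0130). Without the 2 mice farthest from the median of the proximal tubule level, r was -0.78 for Cd44 and -0.67 for Vcam1, but -0.43 for Krt20, -0.35 for Lcn2 and -0.09 for Sox9, so that the relations of the latter 3 rested on those mice. Of all 10, 8 had an r below 0 without them, that of Prom1 turning from -0.35 to 0.32 and that of Havcr1 from -0.47 to 0.03. With the means of the digit taken out, r was -0.72 for Cd44, -0.73 for Vcam1, -0.52 for Krt20, -0.47 for Lcn2 and -0.52 for Sox9.

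Of 14589 other genes, those whose levels went most closely with each marker over the 12 mice were also listed, as a description over mice that all received adenine, of which 6 also received IMC, and that differ in depth. For Havcr1 they were Syt12 (r = 0.966) and Fga (0.955), which encodes a chain of fibrinogen. For Lcn2 they were Prss22 (0.963) and Cd14 (0.958), for Spp1 Serpina10 (0.966) and Rnd1 (0.961), for Clu the chemokine Cxcl1 (0.965) and Rnd1 (0.963), and for Krt20 Cxcl1 (0.977) and the cytokine Il34 (0.952). For Vcam1 they were Tlr2 (0.968) and Icam1 (0.964), another adhesion molecule for leukocytes, and for Cd44 Gas2l3 (0.967) and C3 (0.966). Sox9 was closest to Vmp1 (0.958), Wfdc2 to Coq8b (0.975) and S100a10 (0.958), and Prom1 to Il17rd (0.962) and Arnt2 (0.944).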

How the data were processed

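The members and gene lists were chosen with earlier results of these data known. RNA of flash-frozen kidneys was isolated with a Qiagen kit (RNeasy per the labels, a miRNA kit per the paper), and TruSeq libraries were sequenced as single-end reads and mapped to mm10. The paper names STAR as the aligner, while the submitters' processing notes list Trimmomatic 0.39, FastQC 0.11.8, Bowtie2 2.2.5, HTSeq 0.9.1 and DESeq2, without roles; the annotation release and use of strand are not given in the sources used here. The authors deposited raw counts per gene of the Con and Ade groups. For both adenine groups they deposited a signal, the count divided by a size factor (DESeq2's median of ratios). All values above 0 of that table (100%) were whole multiples of the value of 1 read within 0.01, and for the 6 Ade mice 0 recovered values were unlike the raw ones. The authors also deposited fold changes and p-values of their own comparison, from which only names were read.

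Ade against Con was fitted by edgeR 4.0.16 (quasi-likelihood, TMM, filterByExpr) on raw counts. Ade + IMC against Ade was fitted with limma-trend (limma 3.58.1, log2(normalized count + 1), mean of at least 10), and Ade + IMC against Con by limma on log2 CPM of raw and recovered reads (TMM, prior count 2). R was 4.3.3, the threshold an adjusted p-value below 0.1, and DESeq2 1.42.0 an alternative. Each test was tested on simulated data with 200 changed genes: of those changed by 1 on the log2 scale, 79.7%, 81.2% and 88.7% were recovered in the 3 comparisons, in this order (14669, 14696 and 14572 genes). The simulated counts were drawn for each gene on its own, without differences shared by mice or by first digits. The shares recovered therefore do not give the power in the real data. Correlations used 100000 permutations. Sequences are from RefSeq, gene positions and exon lengths from GENCODE (both GRCm38, the build of mm10). Besides the members, the genes named are at most the 2 called genes with the largest rise and the 2 with the largest fall of each list, the 2 genes closest to each member over the adenine-fed mice (1 of these is not reported here), and genes sharing exonic bases with a member. Of the lists, Areg, Has1, Has2, Timd4, Slc7a13, Avpr2, Retnlg and Cxcr2 did not pass the filter in Ade against Con, and Cyr61, Ctgf, Ly6g, Mpo, Elane, Camp and Ngp were not matched. The digit as a block with edgeR and DESeq2 on recovered reads (Ade + IMC against Ade), and Spearman's rho for the 20 relations to depth and proximal tubule level, were added after seeing the data.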

Additional observations from a re-analysis of the deposited data

Results flagged for a closer look

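Of 33 groups of single values examined for a lone extreme (the 10 markers and the total count in each of 3 groups), 1 was met: the total count of Ade mouse 308 was 5444833, below those of the other 5 Ade mice (7166746 to 7673215). Chance alone gives about 1 in 20 such groups. No marker had such a mouse in any group. Without mouse 308, the 9 markers called higher in the Ade group against the Con group were called too, and limma again called 0 for IMC among the adenine-fed mice.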

How the results depend on the processing

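With each of the 11 mice left out in turn, 9 markers were called between Ade and Con (9145 to 9848 genes), and 8 to 10 between Ade + IMC and Con. Prom1 against Con had a log2 fold change of -0.0069 with the digit as a block, -0.017 with DESeq2, -0.010 with RLE size factors and -0.0082 without a filter, where the reported value was 0.01, and -0.085 to 0.12 with single mice left out (below 0 without Con mouse 202, 301 or 403 or Ade mouse 207), never past the threshold. Between Ade + IMC and Ade the reported limma fit called 0 markers and 0 genes, and so did every fit without 1 mouse, with a pseudocount of 0.5 or 5, without a filter, with edgeR on recovered reads and with limma on log2 CPM. The digit as a block called 2 markers and 133 genes with limma and 2 and 104 with edgeR, DESeq2 called 2 and 37, and DESeq2 with the block 6 (Spp1, Clu, Vcam1, Sox9, Cd44 and Krt20) and 591. The markers' log2 fold changes were below 0 in each of these fits. At an adjusted p-value below 0.05, Wfdc2 and Prom1 were not called between Ade + IMC and Con. Pairs past the threshold were 28 to 38 with 1 mouse left out, 22 with the group means taken out, 22 within Ade and 12 within Ade + IMC (34 as reported), the last 2 from 6 mice each. Relations past the threshold were 5 by Pearson's r and 2 by Spearman's rho. The cause of these differences was not tested. No paired analysis was possible because the replicate numbers were given in accession order and pair no mice. Depth limits Havcr1 and Krt20 in the Con group, where 1 to 7 and 0 to 2 reads per kidney were counted.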
